A study of Homo sapiens with 4 samples.

Results

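The genes described here are 30 genes of sterol and fatty acid synthesis, taken by symbol from the 16376 genes of the deposited expression table, where all 30 have a row. Of these, 4 encode regulators, 17 encode enzymes of the sterol branch and 9 encode enzymes of the fatty acid branch. They were measured by polyadenylated-RNA sequencing in LASCPC-01, a human neuroendocrine prostate cancer cell line derived from benign prostate epithelium that was transformed with N-Myc and active AKT1, so that every library carries both oncogenes. The 2 control libraries came from cells given PBS and the other 2 from cells given ketotifen, an H1 antihistamine that came out of a drug screen against this cancer, by the title of the series. All 4 libraries are labelled wild type and day 3. The dose of ketotifen is not given in the sources used here, and separate cultures are not stated for libraries that share a group, so p-values measure the spread between libraries, which may be technical.

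Cells make cholesterol from acetyl-CoA through the mevalonate pathway, which yields farnesyl diphosphate, and then through squalene and lanosterol. Fatty acids are made from the same precursor by carboxylation, chain assembly, elongation and desaturation. Both branches are controlled by the SREBP transcription factors, which the escort protein SCAP carries from the endoplasmic reticulum to the Golgi for cleavage when sterols are scarce, and which INSIG proteins hold back when sterols are plentiful. SREBP-2, encoded by SREBF2, mainly drives sterol genes, and SREBP-1, encoded by SREBF1, mainly drives fatty acid genes. INSIG1 is itself a target of the factors that it restrains, and prostate cancers are known for active lipid synthesis.

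In these cells no member passed the main test, limma on log2(FPKM + 1) with an adjusted p under 0.05 over 10586 genes. FPKM is a fragment number scaled by gene length and library total. Levels of different genes can be compared only as far as the gene lengths used are right, and these were not given. Over all genes tested, 0.123% were called. The largest differences among members were lower INSIG1, SCD and FADS2 and higher PMVK in the ketotifen libraries. A second test, limma's voom on whole reads recovered from the FPKM values, called 2 of the 30 members lower (INSIG1 and SCD) and 0 higher, where it called 3.56% of all genes lower and 3.35% higher. Of the 30 members, 12 (40%) differed between the groups by more than the libraries did within each group, against 39.9% of all tested genes. A further 6 differed by less than within either group, and 12 by an amount in between.

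The sequences upstream of INSIG1 and SCD are shown because both genes are known SREBP targets. The sequence upstream of SREBF2, which encodes SREBP-2, is shown because it had both a sterol-element core and a CCAAT box in a short stretch. Other members with that core had both motifs too. The sequences shown are from RefSeq (GRCh38.p14, plus strand) and are written 5′ to 3′. The stretches for INSIG1 (chr7:155297628-155297775) and SCD (chr10:100346983-100347123) run from 250 bases before the RefSeq start to the base before the gene's first exon in GENCODE 29. The stretch for SREBF2 (chr22:41832955-41833014) runs from 150 to 91 bases before the RefSeq start. Capitals mark CACCCCA, the core of the classical sterol regulatory element, and the CCAAT box, CCAAT or its reverse complement ATTGG, which binds NF-Y, a factor that works beside SREBPs.
INSIG1: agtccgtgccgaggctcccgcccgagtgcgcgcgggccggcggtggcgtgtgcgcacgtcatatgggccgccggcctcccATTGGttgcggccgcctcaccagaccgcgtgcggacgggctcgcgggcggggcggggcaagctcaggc
SCD: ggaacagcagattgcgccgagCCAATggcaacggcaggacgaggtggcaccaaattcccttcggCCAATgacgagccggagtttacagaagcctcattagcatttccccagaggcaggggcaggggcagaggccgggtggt
SREBF2: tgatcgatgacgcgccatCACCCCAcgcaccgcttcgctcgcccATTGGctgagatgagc

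Each motif was searched on both strands in the 250 bases before the start of every RefSeq window (35116 windows), which matched 27 of the 30 members in 37 windows. FDFT1, FASN and SQLE had no window. The sterol-element core CACCCCA was found in 7% of all windows and in 5 members (ACSS2, EBP, MVD, MVK and SREBF2); in SREBF2 it begins 132 bases before the start. It was not found in the windows of INSIG1 and SCD, which says only that these letters are not there. The CCAAT box was found in 32% of all windows and in 24 of the 37 member windows. Counted by gene, 13 of 15 matched sterol branch genes, 5 of 8 matched fatty acid genes and 2 of 4 regulators had one. All 5 members with the sterol-element core were among them. INSIG1 has its CCAAT box 170 bases before the start, and SCD has 2, beginning 229 and 186 bases before. The palindromic E-box CACGTG, which SREBPs can also bind, was found in 6.34% of all windows and in 4 members (ELOVL5, INSIG1, SC5D and SCAP); in INSIG1 it begins 55 bases before the start, outside the stretch shown. These matches describe letters in short windows and say nothing of binding in these cells.

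The recovered reads summed to between 31154678 and 34812856 per library over the tested genes. A member had between 96 and 55945 reads in a library, with a median of 3449, and 26 of 30 members had at least 1000 reads in every library. Across genes, the ketotifen libraries correlated with each other at r = 0.998. PBS library A correlated at r = 0.996 with PBS library B and at r = 0.996 with each ketotifen library, and PBS library B at r = 0.993 and 0.994 with the ketotifen libraries, so PBS library A was as like the ketotifen libraries as it was like PBS library B; genes are not independent replicates. Among neuroendocrine markers INSM1, NCAM1 and UCHL1 were present, while the defining markers CHGA and SYP stayed under 1 FPKM in every library. INSM1 had 22.3 ± 0.856 FPKM (SD, n = 2) in the PBS libraries and 20.8 ± 1.49 in the ketotifen libraries, which overlapped. NCAM1 had 51.6 ± 0.620 FPKM (SD, n = 2) in the PBS libraries against 44.2 ± 0.355 in the ketotifen libraries (voom adjusted p = 0.00906), and UCHL1 had 446 ± 16.4 and 488 ± 2.42 FPKM (voom adjusted p = 0.101). Whether these marker levels had a part in the results on lipid genes was not tested. Of 8 markers of fibroblast, endothelial and immune cells, 6 were under 1 FPKM in every library, and only COL1A1 and CD68 exceeded it. In bulk RNA, fewer cells expressing a gene and less RNA per cell cannot be told apart.

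The members covered a wide range of levels. FASN, the multifunctional fatty acid synthase, was the highest at 180 to 185 FPKM over the 4 libraries, followed by SCD, the stearoyl-CoA desaturase that makes monounsaturated fatty acids, at 142 to 169 FPKM. FDPS, which makes farnesyl diphosphate, and ACLY, which makes cytosolic acetyl-CoA from citrate, came next with means of 89.9 and 86.9 FPKM. The libraries of these 2 genes overlapped, while all libraries of FASN lay above those of SCD and all those of SCD above FDPS. At the lower end were FADS2, the delta-6 desaturase, at 2.88 to 4.37 FPKM and ACSS2, which makes acetyl-CoA from acetate, at 2.64 to 3.56 FPKM. All other members had means between 10 (IDI1) and 70.2 FPKM (EBP). In 9 of the 29 steps down the order, all libraries of a gene lay above all libraries of the next, so most neighbours were not separated by more than their spread.

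**Figure D1:**
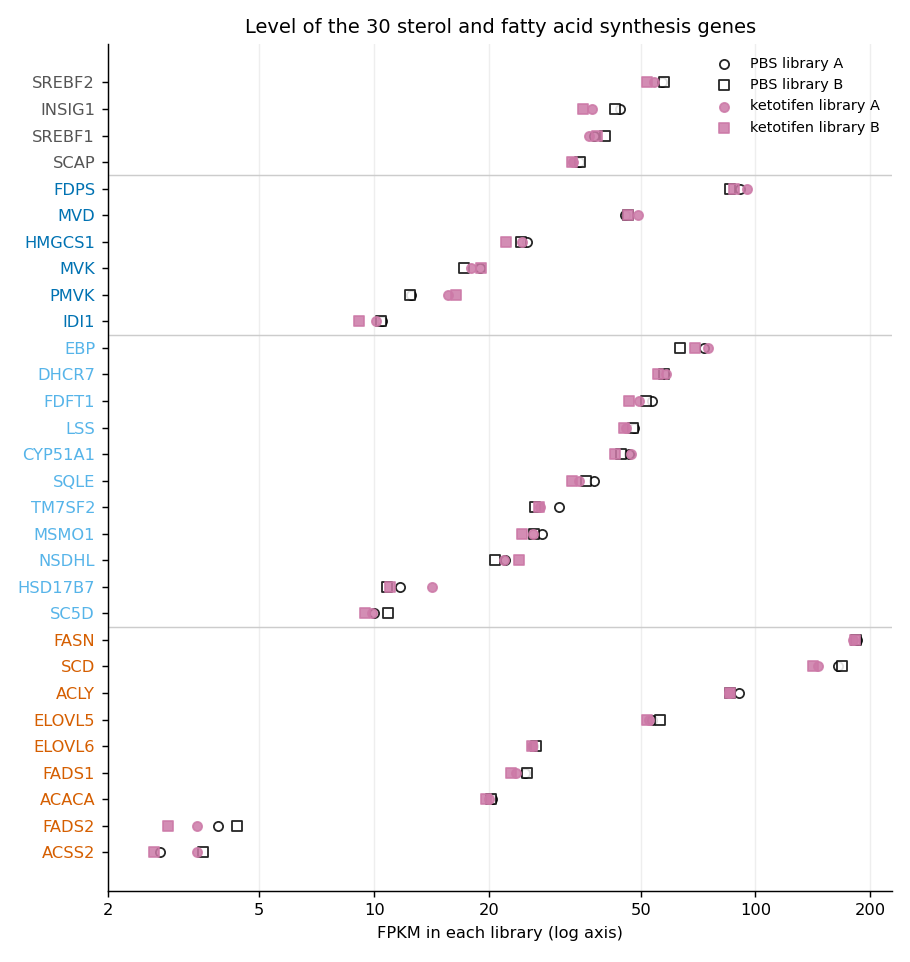
FPKM of each of the 30 genes in each of the 4 libraries, on a log axis, ordered by mean level within regulators (grey names), mevalonate steps (dark blue), squalene to cholesterol (light blue) and fatty acid branch (orange). Open symbols are PBS and filled symbols ketotifen, circles library A and squares library B; FASN and SCD stand at the top of the range and FADS2 and ACSS2 at the bottom, and the groups part visibly in INSIG1, PMVK, SCD and FADS2.

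Among the regulators, the 4 changes were all negative, against 55.7% of changes over all tested genes, and INSIG1 had the largest. INSIG1 (chromosome 7, 155297776 to 155310235 in GRCh38, by GENCODE 29) had 44.2 and 42.7 FPKM in PBS libraries A and B and 37.2 and 35.2 FPKM in ketotifen libraries A and B. Both ketotifen libraries lay below both PBS libraries, as in 31.2% of all tested genes, and the means differed by -16.7%. These values rest on 3143 to 3933 reads per library. The change on the log2(FPKM + 1) scale was -0.26 ± 0.06 (SE, n = 2 against 2; limma adjusted p = 0.102, voom adjusted p = 0.0133). The voom call was kept or lost depending on which library was left out, and the voom change then ran from -0.307 to -0.224. In limma with 1 library left out, the change of INSIG1 ran from -0.298 to -0.218.

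SREBF2 had 57.0 and 57.4 FPKM with PBS and 54.2 and 52.1 FPKM with ketotifen. The groups did not overlap, but the change of -0.10 ± 0.05 (SE) did not pass (limma adjusted p = 0.299). SCAP had 34.5 and 34.7 FPKM with PBS and 33.2 and 33.1 FPKM with ketotifen, without overlap, and the 95% interval of its change, -0.06, ran from -0.18 to 0.06. SREBF1 overlapped between the groups, with 39.1 ± 1.90 FPKM (SD, n = 2) with PBS and 37.4 ± 1.33 with ketotifen. Its exons share 556 bases with RAI1 on the opposite strand in GENCODE 29, and whether counting used the strand is not given in the sources used here.

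**Figure D2:**
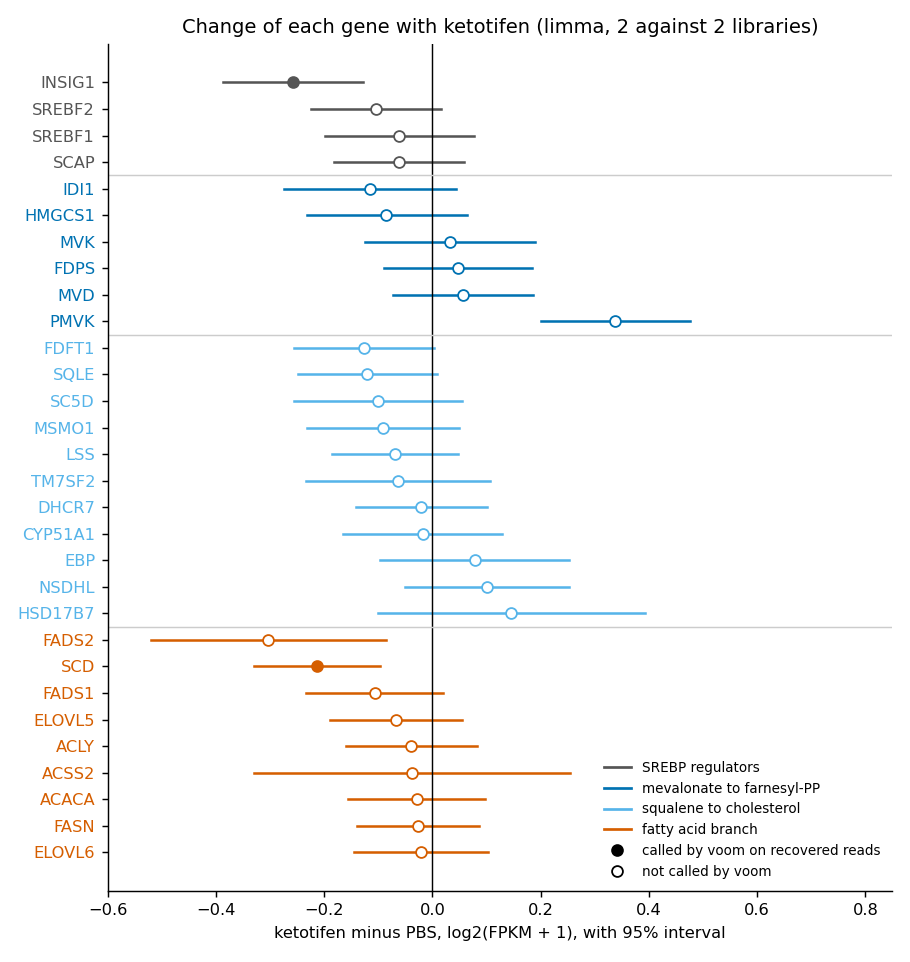
Ketotifen minus PBS on the log2(FPKM + 1) scale for each gene, with limma's unadjusted 95% interval, sorted within the 4 groups of genes. Filled points are the genes called by voom, INSIG1 and SCD; the intervals of INSIG1, PMVK, FADS2 and SCD exclude 0 and those of the other 26 include it.

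The mevalonate steps had 6 members, of which 2 had negative and 4 positive changes, with a median of 0.04; MVK and FDPS turned negative after scaling to an equal sum. PMVK, phosphomevalonate kinase (chromosome 1, 154924734 to 154936991), had the largest positive change of all 30 members. It had 12.5 and 12.4 FPKM with PBS and 15.6 and 16.4 FPKM with ketotifen, on 526 to 733 reads per library. Both ketotifen libraries lay above both PBS libraries, as in 23.2% of all tested genes, and the mean was 28.5% higher. The change was 0.34 ± 0.06 (SE), and passed in neither test (limma adjusted p = 0.0937, voom adjusted p = 0.0519). With 1 library left out, the limma change of PMVK ran from 0.305 to 0.371.

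The enzymes next to PMVK in the pathway did not share this difference in level. MVK, the kinase before it, had 18.1 ± 1.29 FPKM (SD, n = 2) with PBS and 18.6 ± 0.741 with ketotifen. MVD, the decarboxylase after it, had 45.9 ± 0.691 and 47.7 ± 2.17 FPKM. HMGCS1, the synthase that makes HMG-CoA, had 25.2 and 24.3 FPKM with PBS and 24.4 and 22.2 FPKM with ketotifen, and the groups overlapped. IDI1, isopentenyl diphosphate isomerase, had 10.5 and 10.4 FPKM with PBS and 10.1 and 9.13 FPKM with ketotifen, without overlap, a change of -0.12 ± 0.07 (SE; limma adjusted p = 0.376). FDPS had 88.4 ± 3.55 FPKM with PBS and 91.4 ± 4.80 with ketotifen. GENCODE 29 lists 8 pseudogenes named after FDPS, so its reads may be split or shared among copies.

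From squalene to cholesterol, 8 of 11 members had negative and 3 positive changes, with a median of -0.06; CYP51A1 turned positive after median ratio scaling. Over all tested genes 55.7% had a negative change. None of the 11 passed in limma or in voom. In limma 0 of the 11 had an unadjusted p under 0.05, against 20.4% of all tested genes. FDFT1, which joins farnesyl diphosphate into squalene, had 53.6 and 51.6 FPKM with PBS and 49.5 and 46.7 FPKM with ketotifen. SQLE, the epoxidase that follows, had 37.7 and 35.9 FPKM with PBS and 34.5 and 33.1 FPKM with ketotifen. For both genes the ketotifen libraries lay below the PBS libraries, with changes of -0.13 ± 0.06 (SE; limma adjusted p = 0.249) and -0.12 ± 0.06 (SE; limma adjusted p = 0.272). LSS, which closes the sterol rings, was also lower without overlap, at 47.8 ± 0.337 FPKM (SD, n = 2) against 45.6 ± 0.379. Of all tested genes, 31.2% were lower without overlap.

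The later steps were mixed. MSMO1, a C4-methyl sterol oxidase, had 26.9 ± 0.944 FPKM (SD, n = 2) with PBS and 25.2 ± 1.24 with ketotifen, and SC5D, the sterol C5-desaturase, had 10.4 ± 0.578 and 9.67 ± 0.263 FPKM; neither gene's libraries overlapped between groups. NSDHL, which acts with MSMO1 in removing the C4 methyl groups, had 22.0 and 20.7 FPKM with PBS and 21.9 and 24.0 FPKM with ketotifen, so that the groups overlapped. HSD17B7, the ketoreductase of the same step, had 11.2 ± 0.632 FPKM with PBS and 12.6 ± 2.26 with ketotifen. Its ketotifen libraries differed from each other by -0.34 (B minus A, log2), more than the 0.15 between the groups, and GENCODE 29 lists 2 pseudogenes named after it.

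CYP51A1, the lanosterol demethylase, had 45.5 ± 1.44 FPKM (SD, n = 2) with PBS and 45 ± 3.22 with ketotifen; GENCODE 29 lists 3 pseudogenes named after it and a gene on the same strand that shares 2844 of its exonic bases. DHCR7, the reductase of the last step of one route to cholesterol, had 57.6 ± 0.111 and 56.8 ± 1.84 FPKM, and the 95% interval of its change, -0.02, ran from -0.14 to 0.10. EBP, the sterol isomerase, had 68.4 ± 6.80 and 72.1 ± 3.90 FPKM, and TM7SF2, a sterol C14-reductase, had 28.5 ± 2.96 and 27.2 ± 0.153 FPKM. In EBP and TM7SF2 the PBS libraries differed from each other by -0.20 and -0.205 (B minus A, log2), more than the groups did. EBP passed in limma only without PBS library A, where its change was 0.18. Without PBS library B that change was -0.02.

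In the fatty acid branch all 9 changes were negative, though ACSS2 turned positive after quantile normalization; 55.7% of all tested genes had a negative change. SCD (chromosome 10, 100347124 to 100364834) had 165 and 169 FPKM with PBS and 146 and 142 FPKM with ketotifen, on 25109 to 30735 reads per library. Both ketotifen libraries lay below both PBS libraries, as in 31.2% of all tested genes, and the means differed by -13.8%. The change was -0.21 ± 0.05 (SE; limma adjusted p = 0.110, voom adjusted p = 0.00836). As for INSIG1, the voom call was kept or lost depending on which library was left out. The voom change of SCD then ran from -0.237 to -0.195. In limma with a library left out, the change of SCD ran from -0.234 (without ketotifen library A) to -0.193 (without ketotifen library B).

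The other desaturases were lower as well, without passing. FADS2 (chromosome 11, 61792980 to 61867354) had 3.89 and 4.37 FPKM with PBS and 3.44 and 2.88 FPKM with ketotifen, on 349 to 544 reads per library. The groups did not overlap, and the change of -0.30 ± 0.09 (SE) had a limma adjusted p of 0.156 and a voom adjusted p of 0.0849. With 1 library left out, the limma change of FADS2 ran from -0.400 to -0.206. FADS1, the delta-5 desaturase, had 24.9 and 25.1 FPKM with PBS and 23.5 and 22.8 FPKM with ketotifen, also without overlap, a change of -0.11 ± 0.05 (SE; limma adjusted p = 0.312). FADS1 and FADS2 share 490 exonic bases on opposite strands in GENCODE 29, so reads there may belong to either gene; SCD and FADS2 each have 1 named pseudogene.

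**Figure D3:**
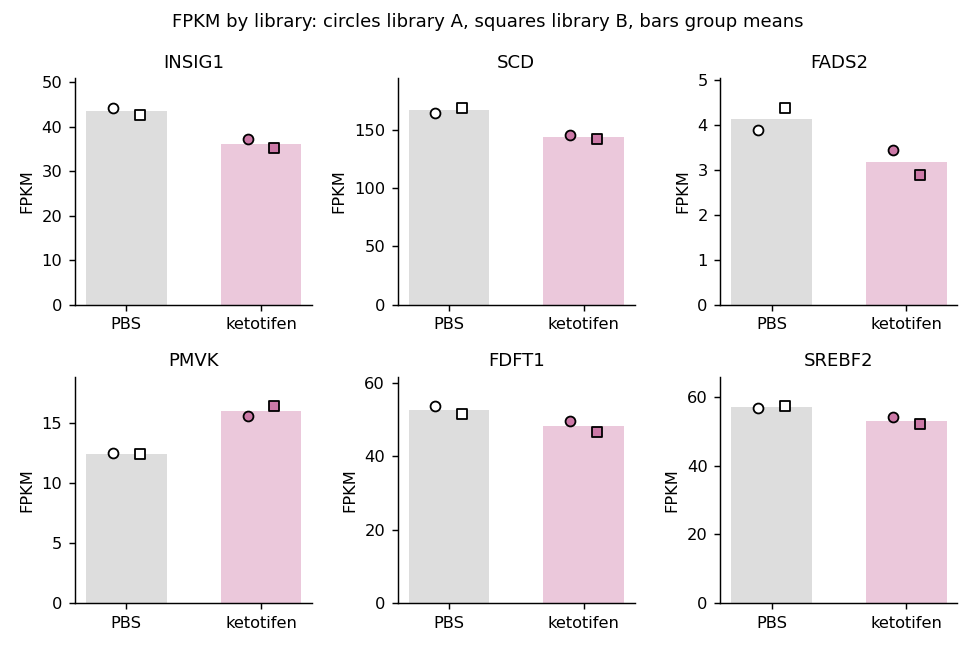
FPKM by library for INSIG1, SCD, FADS2, PMVK, FDFT1 and SREBF2, each on its own axis from 0. Bars are group means, circles library A and squares library B. All 6 genes shown are members without overlap, with the ketotifen libraries above the PBS libraries in PMVK and below them in the other 5. Among the 30 members 13 overlapped. Over all tested genes 31.2% lay below in this way and 23.2% above.

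None of the enzymes that start, build and lengthen the chain passed either test. FASN, ACACA, ELOVL5 and ELOVL6 were lower in the ketotifen libraries without overlap, by small amounts, while ACLY and ACSS2 overlapped. Of all tested genes, 31.2% were lower without overlap. FASN had 184 ± 0.470 FPKM (SD, n = 2) with PBS and 181 ± 1.12 with ketotifen, and the 95% interval of its change, -0.03, ran from -0.14 to 0.09. ACACA, the acetyl-CoA carboxylase that commits carbon to this branch, had 20.3 ± 0.162 and 19.8 ± 0.172 FPKM, and ACLY had 88.0 ± 3.19 and 85.7 ± 0.484 FPKM. The elongase ELOVL6, which acts on saturated and monounsaturated chains, had 26.4 ± 0.401 and 26 ± 0.107 FPKM, and ELOVL5, which acts mainly on polyunsaturated chains, had 55 ± 1.88 and 52.4 ± 0.459 FPKM. ACSS2 was the least precisely measured member. Its 96 to 136 reads per library gave 2.74 and 3.56 FPKM with PBS and 3.44 and 2.64 FPKM with ketotifen, and the change of -0.04 had a 95% interval of -0.33 to 0.25.

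Set side by side, the branches were compared by their medians and counts, and the difference between branches was not tested. The median change was -0.02 over the 17 sterol genes, -0.04 over the 9 fatty acid genes and -0.02 over all tested genes. All 3 medians moved with the scaling. The sterol and fatty acid medians were -0.001 and -0.022 with median ratio scaling, where the median of all tested genes was -0.000. With quantile normalization they were -0.055 and -0.092, and that of all tested genes was -0.007. After scaling to an equal sum they were -0.072 and -0.090, and that of all tested genes was -0.063. Without PBS library A the sterol median was 0.014 and the fatty acid median -0.101. Leaving out PBS library B reversed the order of the branches, with a sterol median of -0.049 and a fatty acid median of -0.037. Dropping ketotifen library A gave -0.068 for sterol and -0.076 for fatty acid genes. The sterol value was -0.006 and the fatty acid value -0.044 when ketotifen library B was dropped. The size and direction of the gap between the branches thus depended on the library left out. Both ketotifen libraries lay below both PBS libraries in 6 of 17 sterol genes and 7 of 9 fatty acid genes, and above them in 1 and 0. Over all tested genes 31.2% lay below and 23.2% above in this way. At an unadjusted p under 0.05, limma had 4 of 30 members (INSIG1, PMVK, SCD and FADS2), or 13.3%, against 20.4% of all tested genes.

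The summed level of a branch showed the weight of its abundant genes. The 17 sterol genes summed to 622 and 592 FPKM in the PBS libraries and 622 and 590 FPKM in the ketotifen libraries, so that both groups held a high library A and a low library B. The 9 fatty acid genes summed to 572 and 574 FPKM with PBS and 540 and 535 FPKM with ketotifen, a difference of -6.13%. Without SCD the other 8 summed to 406 ± 0.514 FPKM (SD, n = 2) with PBS and 394 ± 0.646 with ketotifen, a difference of -2.98%. Differences between libraries of a group can cancel in such a sum, which makes its SD small. From PBS library A to B, ACLY went from 90.3 to 85.8 FPKM and ELOVL5 from 53.6 to 56.3 FPKM. No test was made on these sums.

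The spread within groups set how small a difference could be seen. The median absolute change of the 30 members was 0.07, against 0.06 between the PBS libraries and 0.07 between the ketotifen libraries. Over all tested genes these values were 0.089, 0.082 and 0.062. A difference between means of 2 libraries varies less than one between single libraries, so the change and the within-group values are unlike measures. The difference between groups was larger than both within-group differences in 12 of 30 members (40%), among them INSIG1, SCD, FADS2 and PMVK, and in 39.9% of all tested genes. For 29 of the 30 members limma's 95% interval lay within 0.5 of no change on the log2 scale, the exception being FADS2; so did 95.5% of all tested genes.

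**Figure D4:**
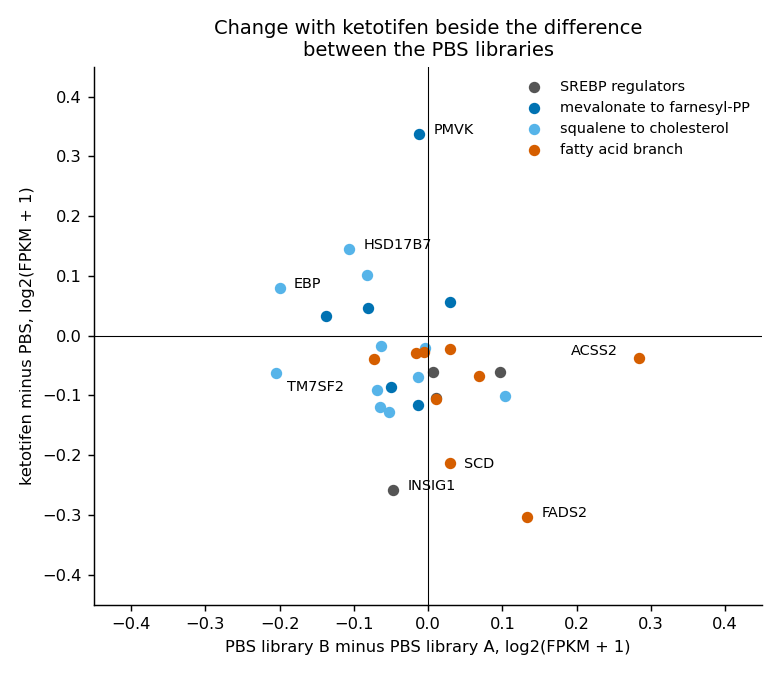
Each point is 1 of the 30 genes, with the difference between the PBS libraries (B minus A) on the horizontal axis and ketotifen minus PBS on the vertical axis, both in log2(FPKM + 1). INSIG1, SCD and PMVK lie far from 0 vertically and near 0 horizontally, while EBP, TM7SF2 and ACSS2 differ more between the PBS libraries than between the groups.

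Of 49 other genes of these pathways, 44 had a mean of at least 1 FPKM and none passed in limma, where 7 (15.9%) had an unadjusted p under 0.05, against 20.4% of all tested genes. Voom called 1 of the 44 (2.27%) lower and 0 higher, against 3.56% and 3.35% of all tested genes. Among 6 genes of SREBP processing the smallest p-value reported is for INSIG2, the second INSIG gene, with 4 and 3.96 FPKM with PBS and 3.26 and 3.13 FPKM with ketotifen (limma adjusted p = 0.150). INSIG2 was thus lower in both ketotifen libraries, with a change of -0.25 ± 0.07 (SE), near that of INSIG1.

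Among 8 genes of sterol supply and transport, 5 had negative changes. LPIN1, a phosphatidate phosphatase and SREBP target, had 27.0 ± 1.76 FPKM (SD, n = 2) with PBS and 23.9 ± 1.05 with ketotifen, and OSBP, an oxysterol-binding protein, had 28.8 ± 0.132 and 26.5 ± 0.109 FPKM. Of 6 genes of the LXR sterol sensors and their targets, 4 were tested. LPCAT3, a phospholipid acyltransferase, had 25.9 ± 1.08 and 23.7 ± 0.425 FPKM, and MYLIP, a ubiquitin ligase for lipoprotein receptors, had 4.50 ± 0.366 and 4.15 ± 0.232 FPKM. The cholesterol exporter ABCA1 had 2 to 10 reads per library and was not tested. Of 8 genes that use isoprenoids 7 were tested; GGPS1, which makes geranylgeranyl diphosphate, had 5.91 ± 0.346 and 6.50 ± 0.0454 FPKM, and COQ2, of ubiquinone synthesis, had 11.2 ± 0.594 and 10.4 ± 0.274 FPKM.

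Among 21 further genes of fatty acid supply, elongation and activation 19 were tested, 13 with negative and 6 with positive changes. ELOVL7, an elongase of long saturated chains, had 2.64 and 2.61 FPKM with PBS and 2.10 and 1.78 FPKM with ketotifen, and was the gene called by voom (voom adjusted p = 0.0454, limma adjusted p = 0.148). SCD5, the second human stearoyl-CoA desaturase, had 2.88 and 2.44 FPKM with PBS and 2.03 and 1.90 FPKM with ketotifen. Its change of -0.30 ± 0.09 (SE) did not pass (limma adjusted p = 0.153, voom adjusted p = 0.0865), and the ketotifen libraries lay below the PBS libraries, as they did in SCD.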

How the data were processed

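Polyadenylated RNA of 4 libraries was sequenced as 150-base read pairs, per the labels' protocols. Tools given without versions in the submitters' processing notes are HTSeq, HISAT2 and fastp, with the build GRCh38. The annotation, the gene lengths and the strand setting behind the FPKM were not given in the sources used here. The authors deposited 1 FPKM value per gene and library. The table's columns name the group and carry letters matched to no replicate number. The 10586 genes whose mean reached 1 FPKM were tested with limma 3.58.1 (R 4.3.3, intensity trend) on log2(FPKM + 1), two-sided, with Benjamini-Hochberg adjustment over all of them; this scale understates changes of low genes. With 2 against 2 libraries an exact permutation test cannot go below p = 0.333, so none was made. Values of a gene are whole multiples of 1 read's worth, which gave whole reads for 100.0% of tested genes, up to a common factor per gene (error under 0.05 reads; 0 of 500 decoys); voom used these reads. Other pseudocounts, filters and scalings, leaving out each library, and a block on the column letter were tried. Both tests were run on simulated data. Of 47 genes given a change of 0.3 log2, limma called 31.9% and voom 53.2%. Of 58 genes given 0.5, limma called 79.3% and voom 82.8%. Changes of about 0.3 could thus be missed. Genes were described by group: values per library for those called, otherwise the 3 with the smallest p, and 2 per list of other genes. Some genes of these lists are not reported here. Members, lists and motifs were chosen with earlier results of these data known.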

Additional observations from a re-analysis of the deposited data

How the results depend on the processing

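The columns of both groups share the letters A and B, which match no replicate number of the labels. A replicate block on the letter, chosen as an alternative after the data were seen, gave 637 genes in limma (406 higher, 231 lower) and 3 members, INSIG1 (adjusted p = 0.0223), PMVK (adjusted p = 0.0167) and SCD (adjusted p = 0.0369), of which 1 is in the sterol and 1 in the fatty acid branch. The differences B minus A of the groups correlated at r = 0.102 across genes, and nothing states that a letter marks a shared culture or day. At the main settings 0 of 30 members and 13 of all genes were called (1 higher, 12 lower). Voom called 2 members, 1 of them in the fatty acid branch, and 732 genes in all. The count over all genes was 27 (15 higher, 12 lower) with a mean of at least 5 FPKM, 3 (1 higher, 2 lower) with median ratio scaling, 3 (1 higher, 2 lower) with quantile normalization, and 0 with no filter (limma; 2295 at an unadjusted p under 0.05, 2157 at the main settings). Leaving out 1 library at a time gave 10 to 1936 genes, 0 to 5 members, 0 to 2 sterol genes and 0 to 2 fatty acid genes, in each case most without PBS library A; without PBS library B 421 genes and 3 members (INSIG1, PMVK and SCD) were called. Leaving out each library gave 126 to 2148 genes in voom, also chosen after the data were seen. The fatty acid median moved to -0.022 after median ratio scaling, -0.092 after quantile normalization and -0.090 after scaling to an equal sum, and ran from -0.101 to -0.037 with a library left out; the sterol median, at -0.021, moved to -0.001, -0.055 and -0.072 by the same scalings and ran from -0.068 to 0.014. The causes of these shifts were not tested.

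Over all these settings but the block and voom with a library left out, 22 of 30 members kept their direction. MVK was at -0.017 and FDPS at -0.004 after scaling to an equal sum, CYP51A1 at 0.002 after median ratio scaling and ACSS2 at 0.016 after quantile normalization. With a library left out the changes ran from -0.036 to 0.102 for MVK, -0.006 to 0.1 for FDPS, -0.089 to 0.053 for CYP51A1, -0.165 to 0.040 for TM7SF2, -0.025 to 0.316 for HSD17B7, -0.022 to 0.179 for EBP, -0.053 to 0.012 for DHCR7 and -0.181 to 0.106 for ACSS2. None of these 8 was called at the main settings. Where 1 library is left out, the lone library of its group is assumed to vary like the others.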
